A study of Mus musculus with 2 samples.

Results

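Interferon response genes, 9 of the 53272 genes read, were followed in single mouse bone marrow cells sorted through 4 gates. The genes were Ifitm1, Ifitm2, Ifitm3, Isg15, Bst2, Irf1, Irf7, Ifi27 and Ly6e, chosen by name as genes of the interferon response, with earlier results of these data known. All 9 had counts in all 4 gates. The mice were C57BL/6, 8 weeks old, and carried Fucci, a pair of fluorescent proteins that report the cell cycle. The mKO2 reporter marks G0 and G1, and the mAG reporter marks S, G2 and M. The gates were mKO2high, mKO2low and mKO2neg, which differ in the brightness of mKO2, and mAG+. No treatment, other genotype or other age was named, so interferon itself was not varied, and no surface marker of the sort was named. Each gate held 48 cells, prepared by a Smart-seq2 method with enrichment for the ends of transcripts, in a library of mKO2neg with mAG+ and a library of mKO2high with mKO2low.

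Interferons are secreted proteins that signal through cell surface receptors to JAK kinases and STAT transcription factors. Type I interferon acts mainly through the interferon-stimulated response element (ISRE) in gene promoters, and interferon gamma mainly through the gamma-activated site (GAS). The genes they turn on block viruses at many steps, and in bone marrow stem cells several of them are transcribed without infection, while acute interferon exposure is known to draw quiescent stem cells into the cell cycle.

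The promoters of the members differ in the motifs they carry, and 4 windows with matches are shown, those of 3 members and of Cxcl10, so that the motifs can be read in place. RefSeq (GRCm38.p6) gave a promoter for 7 of the 9 members, with none for Ifi27 or Ly6e. In the 250 bases before the transcription start, GAAANNGAAA (the ISRE core, searched on both strands) was found in 3 of the 7, which were Ifitm2, Isg15 and Bst2, and in 2.98% of the 32851 promoter windows searched. TTCNNNGAA (GAS, the same letters on both strands) was found in 2 of the 7, Bst2 and Irf1, and in 7.02% of all windows. Neither motif was in the windows of Ifitm1, Ifitm3 or Irf7. These 3 windows, and that of Ifitm2, overlap exons of their own gene in GENCODE vM21. The Ifitm1 window (chr7:140967826-140968075) lies wholly inside the gene as GENCODE places it, so the bases before the GENCODE start were not searched. A match is a stretch of letters and not a measured site. The 4 windows are written 5′ to 3′ on the strand of the gene, with the matches in capitals.
Isg15 (chr4:156200819-156201068, minus strand): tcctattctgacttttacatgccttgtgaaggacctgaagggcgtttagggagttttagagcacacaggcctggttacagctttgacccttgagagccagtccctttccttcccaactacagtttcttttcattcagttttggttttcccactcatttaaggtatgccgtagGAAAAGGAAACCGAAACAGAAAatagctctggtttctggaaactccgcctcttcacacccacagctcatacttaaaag
Bst2 (chr8:71537473-71537722, minus strand): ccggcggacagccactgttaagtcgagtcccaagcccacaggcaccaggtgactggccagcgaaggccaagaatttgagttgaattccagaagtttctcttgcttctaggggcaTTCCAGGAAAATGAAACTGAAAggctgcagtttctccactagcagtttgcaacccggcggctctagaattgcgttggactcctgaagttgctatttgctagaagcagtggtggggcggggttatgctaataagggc
Irf1 (chr11:53769764-53770013, plus strand): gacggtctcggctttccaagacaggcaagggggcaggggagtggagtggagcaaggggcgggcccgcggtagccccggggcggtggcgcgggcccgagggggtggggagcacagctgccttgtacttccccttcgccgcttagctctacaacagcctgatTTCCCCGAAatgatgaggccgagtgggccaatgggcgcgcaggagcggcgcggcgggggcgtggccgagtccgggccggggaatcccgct
Cxcl10 (chr5:92348890-92349139, minus strand): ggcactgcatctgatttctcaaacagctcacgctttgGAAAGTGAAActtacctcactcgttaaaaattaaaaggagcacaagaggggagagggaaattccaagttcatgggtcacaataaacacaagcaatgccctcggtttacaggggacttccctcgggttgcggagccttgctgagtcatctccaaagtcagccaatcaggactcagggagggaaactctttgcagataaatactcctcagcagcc
No exon of GENCODE vM21 lies in these 4 windows. In Isg15 the capitals hold 3 ISRE matches in a row, each sharing 4 bases with the next, between 78 and 57 bases before the start. In Bst2 a GAS match from 136 to 128 bases before the start runs into 2 overlapping ISRE matches that end 115 bases before it. Irf1 has a single GAS match at 90 to 82 bases. Cxcl10, a chemokine gene outside the 9 that is shown because 1 cell described below was rich in it, has an ISRE match at 213 to 204 bases.

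The gene names in the deposited tables were displaced, so each gene was read from the row of the gene just before it in GENCODE vM21 order. Ifitm1, for instance, was read from the row labelled Ifitm2, and Irf7 from that labelled Phrf1. Read this way, 17 of 17 housekeeping genes had at least 1000 counts and 19.995% of all counts fell in ribosomal protein genes, against 1 of 17 and 0.214% under the names as deposited. The library of mKO2high and mKO2low gave 934036 and 1703263 counts for these gates, with 44 and 48 of 48 cells at 1000 counts or more. The library of mKO2neg and mAG+ gave 1608630 and 2791584, with 43 and 45 such cells. All 15 G2 and M phase markers were at least 2-fold higher in mAG+ than in mKO2neg (21.2% of all genes were), with summed levels of 8145 and 1020 CPM (counts scaled to a gate total of 1000000). The stem cell gene Meis1 had counts in 39 to 46 of the 48 cells of each gate, while Cd48, which long-term stem cells lack, had 14 counts in all. Each gate is 1 sample, so no test could be run. Intervals are 95% and cover counting error only, not the spread between mice or cells. The number of mice is not given in the sources used here. Ratios of mKO2low to mKO2high and of mAG+ to mKO2neg are within a library, and for the other gate pairs gate and library cannot be told apart. Every gate enters 2 of the 4 comparisons, so their ratios are not independent.

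The 9 genes together had their highest summed level in mKO2high (8298 CPM), followed by mKO2low (7322 CPM), mKO2neg (5726 CPM) and mAG+ (4342 CPM). Most of the difference between the first and the last lay in Ifitm1, whose level was 3.81-fold lower in mAG+ than in mKO2high. Ifitm3 and Ifitm2 had the same order of gates, with smaller differences between mKO2high and mAG+. The other members did not follow that order: Ly6e and Bst2 were lowest in mKO2neg, Isg15, Irf7 and Ifi27 had their highest level in mKO2low, and Irf1 was higher in mKO2low and mAG+ than in the other two gates. The typical cell with at least 1000 counts had a count for 5, 6, 6 and 7 of the 9 genes in the same gate order, and for 5 in every gate once each cell was thinned to 5000 counts.

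**Figure D1:**
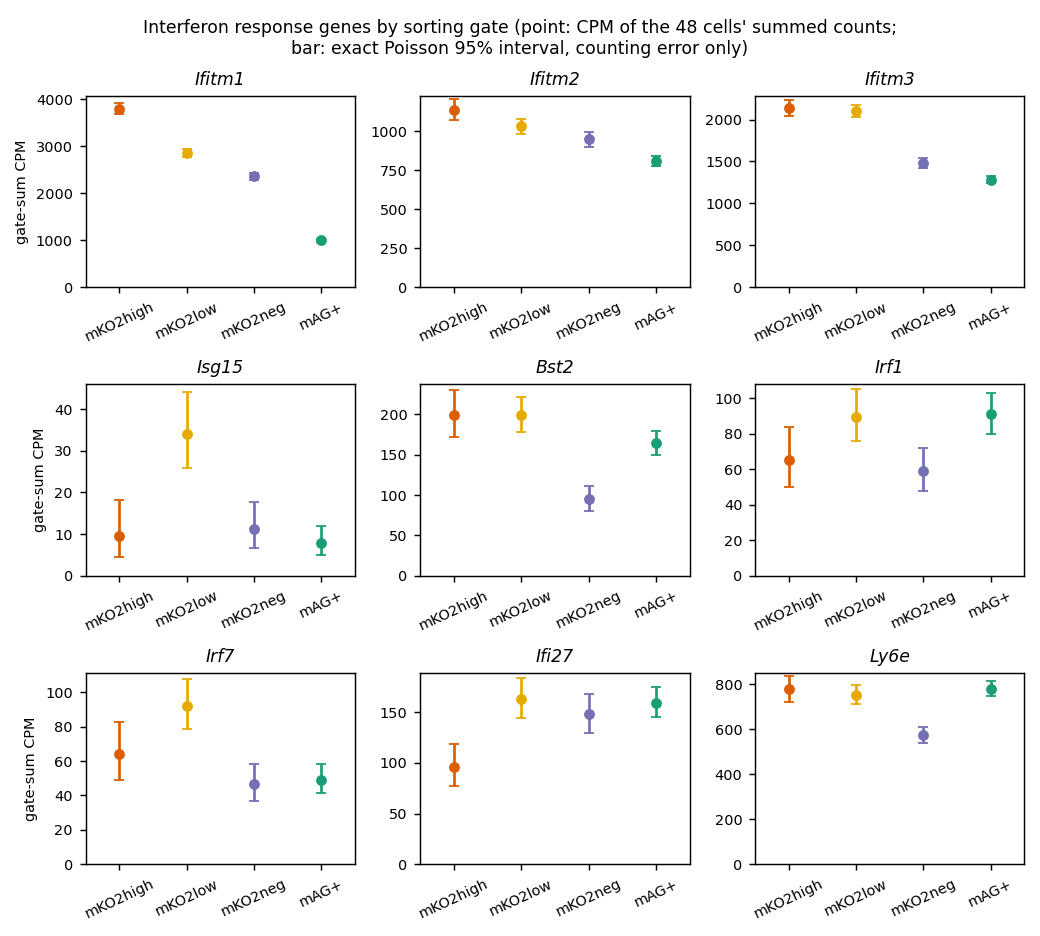
Gate-sum CPM of the 9 interferon response genes (vertical axis, linear from 0, a separate scale in each panel) in the 4 gates; points are the level of the summed counts of 48 cells and bars are exact Poisson 95% intervals. Ifitm1 steps down from 3807 to 998 CPM across the gates, and Isg15 and Irf7 are highest in mKO2low.

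The Ifitm genes encode small membrane proteins that keep enveloped viruses from fusing with the membranes of endosomes. Ifitm1 (chromosome 7, 140967221 to 140969825, plus strand) stood at 3807 CPM (3683 to 3934) in mKO2high, 2856 CPM (2776 to 2937) in mKO2low, 2365 CPM (2290 to 2441) in mKO2neg and 998 CPM (962 to 1036) in mAG+. None of these intervals overlap. The log2 ratio was -0.41 (-0.48 to -0.35) for mKO2low against mKO2high and -1.24 (-1.32 to -1.17) for mAG+ against mKO2neg, a level 2.37-fold lower. Between libraries it was -0.27 (-0.33 to -0.21) for mKO2neg against mKO2low and -1.93 (-2.003 to -1.86) for mAG+ against mKO2high. Cell by cell, the lowest, median and highest levels of Ifitm1 per 10000 counts were 9.17, 35.8 and 89.8 in mKO2high and 6.12, 24.6 and 75.8 in mKO2low. They were 2.17, 25.8 and 76.2 in mKO2neg and 0, 10.03 and 31.8 in mAG+. The gates overlap, but the upper quartile of mAG+ (13.3) lies only slightly above the lower quartile of mKO2neg (12.2) and below that of mKO2low (19.4). Between mKO2low and mKO2neg the cell medians are in the opposite order to the gate sums. Detection does not show the difference, since 95.6% of thinned mAG+ cells and all thinned cells of the other 3 gates had a count.

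Ifitm3 (chromosome 7, 141009586 to 141010770, minus strand) stood at 2140 CPM (2047 to 2236) in mKO2high, 2100 CPM (2032 to 2170) in mKO2low, 1477 CPM (1418 to 1538) in mKO2neg and 1282 CPM (1240 to 1325) in mAG+. The mKO2high and mKO2low levels cannot be told apart at this depth (log2 ratio -0.03, -0.11 to 0.05), and the largest step lies between the libraries, at -0.51 (-0.58 to -0.43) for mKO2neg against mKO2low, with -0.20 (-0.28 to -0.13) for mAG+ against mKO2neg. Ifitm2 (chromosome 7, 140954837 to 140955987, minus strand) had the same order of gates: 1138 CPM (1071 to 1209) in mKO2high, 1033 CPM (986 to 1083) in mKO2low, 950.5 CPM (903 to 999) in mKO2neg and 810 CPM (777 to 844) in mAG+. Its step between the libraries was smaller than that of Ifitm3, at -0.12 (-0.22 to -0.02) for mKO2neg against mKO2low. Its steps within a library were not smaller. They were -0.14 (-0.25 to -0.03) for mKO2low against mKO2high and -0.23 (-0.32 to -0.14) for mAG+ against mKO2neg. The log2 ratio of mAG+ to mKO2high was -0.49 (-0.60 to -0.38) for Ifitm2, against -0.74 (-0.82 to -0.66) for Ifitm3. Of the other listed genes of the family, Ifitm10 had no count, and Ifitm7 stood at 30.0, 4.11, 6.22 and 10.4 CPM in mKO2high, mKO2low, mKO2neg and mAG+. The Ifitm genes are close copies: 41.9% of the 50-base stretches in the last 500 bases of the Ifitm2 transcript also occur in other genes, against 11.8% for Ifitm1 and 14.0% for Ifitm3. How reads that match several genes were counted is not given in the sources used here, so the split of counts among the 3 is uncertain, most of all for Ifitm2, whose exons also overlap those of Gm45717 on the same strand.

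**Figure D2:**
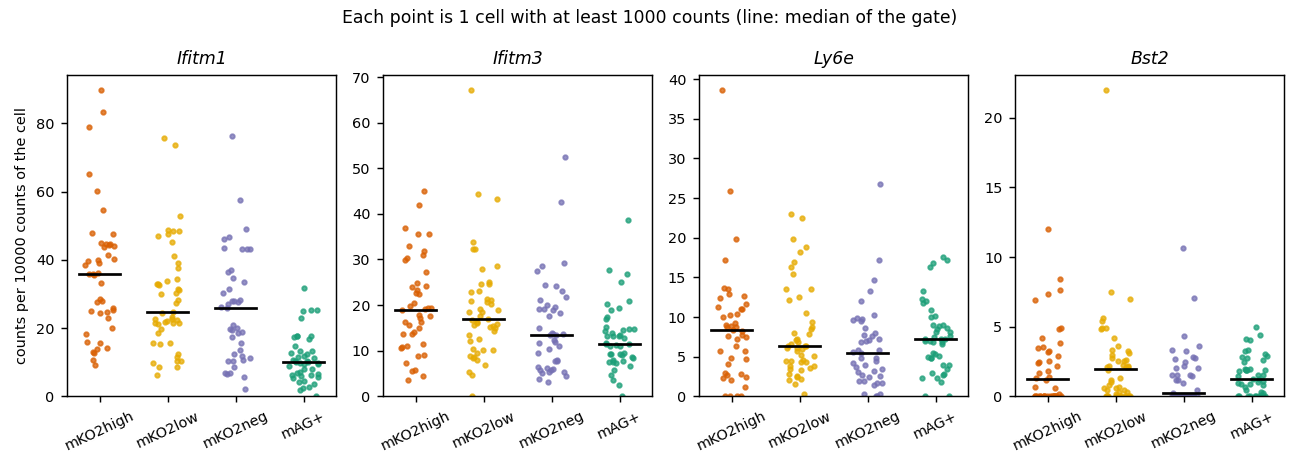
Levels of Ifitm1, Ifitm3, Ly6e and Bst2 in single cells with at least 1000 counts (vertical axis, counts per 10000 counts of the cell; horizontal axis, gate); each point is a cell and the line is the gate's median. The Ifitm1 median is 35.8 in mKO2high and 10.03 in mAG+, and the cells of all gates overlap.

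Ly6e encodes a lipid-anchored surface protein that also limits virus entry. It stood (chromosome 15, 74955051 to 74959905, plus strand) at 778 CPM (723 to 837) in mKO2high, 754 CPM (714 to 797) in mKO2low, 574 CPM (537 to 612) in mKO2neg and 780 CPM (748 to 814) in mAG+. The intervals of mKO2high, mKO2low and mAG+ overlap and mKO2neg lies below them, with a log2 ratio of mAG+ to mKO2neg of 0.44 (0.33 to 0.56). With every cell thinned to the same depth that ratio was 0.05. Of the 14 genes of the Ly6 family listed, 7 had no count in any gate. Ly6a, which encodes the stem cell antigen Sca-1 and is itself interferon-inducible, was highest in mKO2high (400 CPM) and mKO2low (368 CPM), at 278.5 CPM in mKO2neg and at 127 CPM in mAG+, and its log2 ratio of mAG+ to mKO2neg was -1.13 (-1.34 to -0.93).

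Bst2 encodes tetherin, which holds budding virus particles on the cell surface. It stood (chromosome 8, 71534255 to 71537456, minus strand) at 199 CPM in mKO2high (172 to 230) and in mKO2low (178 to 221), at 95.1 CPM (80.6 to 111) in mKO2neg and at 164 CPM (149 to 180) in mAG+. The mKO2neg gate is the low one: the log2 ratio was -1.06 (-1.35 to -0.79) for mKO2neg against mKO2low and 0.78 (0.52 to 1.06) for mAG+ against mKO2neg. The second of these was -0.021 after thinning and 0.15 with equal weight for each cell. Bst2 is also a surface marker of plasmacytoid dendritic cells. Of the 8 markers listed for them, Bst2 included, Siglech, Klk1, Cox6a2, Ly6d and Cd209d had no count in any cell, and Ccr9 had 9 counts in 1 mKO2high cell. Tcf4, a transcription factor gene on the list, stood at 159.5, 135, 88.9 and 119 CPM in mKO2high, mKO2low, mKO2neg and mAG+, and was thus also lowest in mKO2neg. The list summed to 368, 334, 184 and 283 CPM, and its part in the Bst2 levels was not tested. A count for Bst2 was found in 54.2% (39.2 to 68.6) of the cells in mKO2high and 77.1% (62.7 to 88.0) in mKO2low. The shares were 45.8% (31.4 to 60.8) in mKO2neg and 72.9% (58.2 to 84.7) in mAG+. At 5000 counts per cell they became 46.2%, 47.9%, 37.2% and 44.4%, and the 4 intervals overlap.

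Isg15 encodes a ubiquitin-like protein that is released and is also attached to other proteins. It was the sparsest member, with 9 counts in 3 cells of mKO2high, 58 in 7 cells of mKO2low, 18 in 4 cells of mKO2neg and 22 in 3 cells of mAG+ (chromosome 4, 156199424 to 156200818, minus strand). These are 9.64 CPM (4.41 to 18.3), 34.1 CPM (25.9 to 44.0), 11.2 CPM (6.63 to 17.7) and 7.88 CPM (4.94 to 11.9). The mKO2low gate stands above the rest, whose intervals overlap, and its log2 ratio to mKO2high was 1.74 (0.80 to 3.02), a level 3.53-fold higher. One mKO2low cell held 23 of the 58 counts, and without it the level was 21.1 CPM and the ratio 1.07. In each of the other gates most counts came from 1 cell, with 6 of 9 in mKO2high, 13 of 18 in mKO2neg and 18 of 22 in mAG+. Without the largest cell of each gate the ratio of mKO2low to mKO2high was 2.44. With the deepest cell left out in every gate, the ratio of mKO2neg to mKO2low went from -1.56 to -3.13, and that of mAG+ to mKO2high from -0.27 to -2.40. The enzymes that attach ISG15 had another pattern. Uba7, the activating enzyme, stood at 303, 286.5, 261 and 113 CPM in mKO2high, mKO2low, mKO2neg and mAG+, with a log2 ratio of mAG+ to mKO2neg of -1.20 (-1.42 to -0.99). Ube2l6, the conjugating enzyme, stood at 241, 250, 155 and 96.7 CPM, with a ratio of -0.68 (-0.93 to -0.42). Usp18, which removes ISG15 and restrains the type I receptor, stood at 20.3, 71.6, 19.9 and 28.7 CPM, but at 18.1 CPM in mKO2low without the cell that held 23 of the Isg15 counts.

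Irf1 and Irf7 encode transcription factors that carry the response further, Irf1 mainly after interferon gamma and Irf7 mainly in the amplification of type I interferon. Irf1 (chromosome 11, 53770014 to 53778374, plus strand) stood at 65.3 CPM (49.96 to 83.9) in mKO2high, 89.8 CPM (76.2 to 105) in mKO2low, 59.1 CPM (47.8 to 72.2) in mKO2neg and 91.0 CPM (80.1 to 103) in mAG+. Within each library it was the higher in the gate with more counts per cell, with log2 ratios of 0.46 (0.02 to 0.91) and 0.62 (0.28 to 0.98). With cells thinned to 5000 counts these ratios were 0.996 and 1.01. Single cells weighed on them: 1 mKO2low cell had 21.2 Irf1 counts per 10000, and 1 mKO2high cell with 70644 counts had 4.39. Without the largest cell of each gate the ratios were 0.90 and 0.48, and with equal weight for each cell 1.19 and 0.65. Irf7 (chromosome 7, 141262706 to 141266481, minus strand) stood at 64.2 CPM (49.0 to 82.7) in mKO2high, 92.2 CPM (78.3 to 108) in mKO2low, 46.6 CPM (36.7 to 58.4) in mKO2neg and 49.1 CPM (41.2 to 58.0) in mAG+. A single mKO2low cell held 64 of the 157 counts of its gate. Without it the level was 56.0 CPM, within the intervals of mKO2high, mKO2neg and mAG+, and the ratio to mKO2high turned from 0.52 (0.08 to 0.98) to -0.20. That leaves a cell out of mKO2low only. With the largest cell left out of both gates the ratio of mKO2low to mKO2high was 0.28, so its direction depends on which cells are left out. The ratio of mAG+ to mKO2neg was 0.07 (-0.34 to 0.50), and -1.15 with thinned cells. Exons of Irf7 overlap Phrf1, and those of Irf1 overlap Gm17334, on the opposite strand, and the strand setting of the counting is not given in the sources used here.

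Ifi27 encodes a small hydrophobic membrane protein. It stood (chromosome 12, 103434211 to 103440239, plus strand) at 96.4 CPM (77.5 to 118) in mKO2high, 163 CPM (145 to 184) in mKO2low, 148 CPM (130 to 168) in mKO2neg and 159 CPM (145 to 175) in mAG+. Only mKO2high is apart, with a log2 ratio of mKO2low to mKO2high of 0.76 (0.41 to 1.12). That order was not seen with thinned cells (-0.14). Counts came from 13, 22, 16 and 26 of 48 cells in mKO2high, mKO2low, mKO2neg and mAG+, and 1 cell of mAG+ gave 80 of the 445 counts of its gate.

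Set against all genes, few of the 9 were past 2-fold in any comparison. For mKO2low against mKO2high, Isg15 alone was at least 2-fold higher, where 19.6% of 10901 genes with at least 10 counts were, and none was 2-fold lower, where 15.0% were (34.5% in either direction). The median log2 ratio of the members was 0.00, and that of all genes 0.05. For mAG+ against mKO2neg, Ifitm1 alone was at least 2-fold lower, where 14.6% of 12115 genes were (35.8% in either direction), with medians of 0.07 for the members and 0.06 for all genes. For mKO2neg against mKO2low, gates of different libraries, all 9 members were lower, where 5634 of 11375 genes were (median -0.51, all genes 0.01). Isg15 and Bst2 were at least 2-fold lower, where 16.7% of all genes were (32.0% in either direction). Without the single mKO2low cell all 9 were still lower, with a median of -0.32 and none past 2-fold. With thinned cells Ifi27 was higher, at 0.29. For mAG+ against mKO2high the median was -0.28 (all genes 0.12), and Ifitm1 alone was at least 2-fold lower, where 17.1% of 11849 genes were (43.3% in either direction). None of the counts of members past 2-fold stands far from the share of all genes. The count of 9 lower members for mKO2neg against mKO2low does, and there gate and library cannot be told apart.

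**Figure D3:**
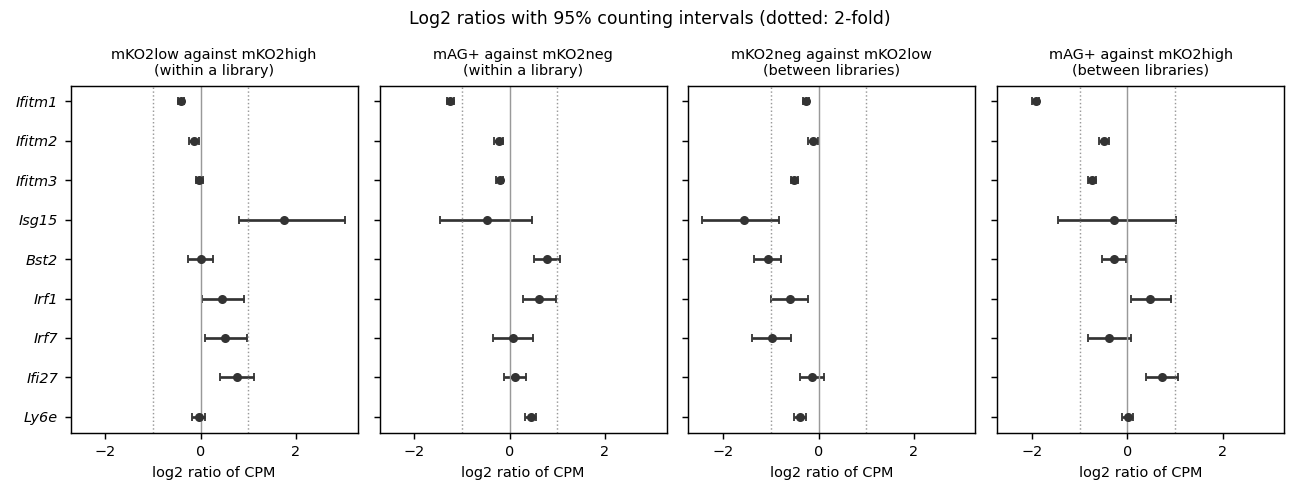
Log2 ratio of CPM for each of the 9 genes (horizontal axis) in 4 gate comparisons, with exact conditional binomial 95% intervals as bars and dotted lines at 2-fold. Ifitm1 lies left of 0 in every panel, and every point of mKO2neg against mKO2low, a comparison between libraries, lies left of 0.

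One cell of the mKO2low gate stood apart in its antiviral effectors and in several of the members. Of its 42268 counts, 2.72% fell in the 43 listed antiviral effectors induced by type I interferon, which is 272 per 10000 counts. The next highest of the other 179 cells had 80.9, and the gate medians ran from 17.0 in mAG+ and 17.3 in mKO2neg to 19.3 in mKO2high and 20.4 in mKO2low. It had a count for 37 of the 43 effectors and for 8 of the 9 members, Ifi27 being the exception, and its 184 per 10000 in the members was the highest of all cells. Ifit1, whose protein binds viral RNA caps, had 323 counts in this cell and 68 in the other 47 cells of the gate. Cxcl10, the chemokine whose promoter is shown above, had 235 against 16, and Usp18 had 92 against 30. Rsad2, which encodes viperin, had 54 against 55, and Ifit3b had 33 against 8. Among the members the cell's levels per 10000, beside the median of the other 47, were 67.2 and 16.8 for Ifitm3, 22.9 and 6.33 for Ly6e, 52.8 and 24.6 for Ifitm1, 15.1 and 0 for Irf7, and 5.44 and 0 for Isg15. For Irf1, with 4 counts there, the levels were 0.95 and 0.15, and 48 cells of all gates had a higher level. The cell had 3644 genes and 3.43% of counts in mitochondrially encoded genes, both near the medians of its gate (3507.5 and 3.65%), and 14 cells of the gate were deeper. Among stem and progenitor markers it had counts for Ly6a (50), Gata2 (39), Meis1 (15), Mecom (7), Slamf1 (6), Procr (4), Flt3 (3) and Kit (2), and none for Cd34, Hlf, Hoxa9 or Cd48. Of the 8 plasmacytoid markers it had 23 counts for Bst2 and 13 for Tcf4, which were 5.44 and 3.08 per 10000 against medians of 1.92 and 1.04 in the other 47 cells, and none for the rest. Of the 8 monocyte and macrophage markers it had 94 counts for Lyz2, within the range of its gate, and 7 for C1qb, which only 2 of the other 47 cells held (15 counts). It had none for Csf1r, Ly6c2, Ccr2, Adgre1, Cd68 or C1qa. What set it apart was not tested.

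**Figure D4:**
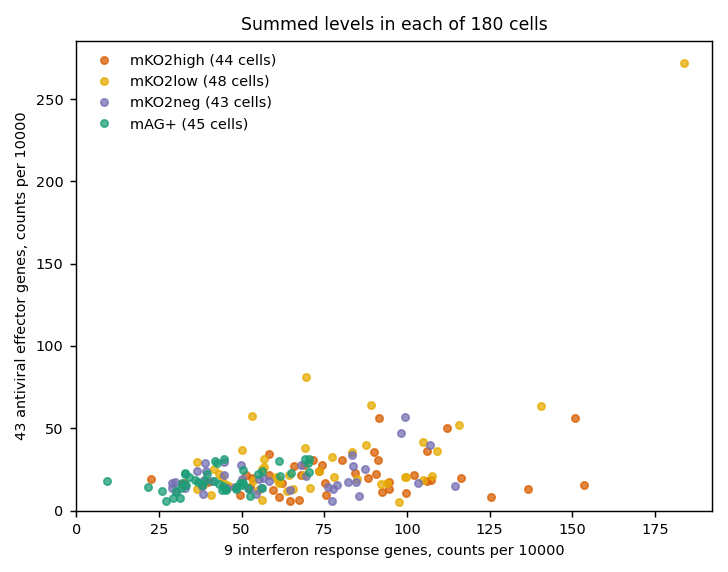
Summed counts per 10000 of the 9 members (horizontal axis) and of 43 antiviral effectors (vertical axis) in each of the 180 cells with at least 1000 counts, coloured by gate. One mKO2low cell lies at 184 and 272, and the next highest value on the vertical axis is 80.9.

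Receptors and signalling genes of the pathway were detected in all gates, while counts for interferon genes were not. None of the 9 listed interferon genes, among them Ifnb1, Ifna1 and Ifng, had a count in any cell, and interferon protein was not measured. Of the 11 receptor and signalling genes, all had at least 10 counts in each comparison. Jak1, the kinase shared by the type I and type II receptors, was level at 208, 228, 227.5 and 208 CPM in mKO2high, mKO2low, mKO2neg and mAG+. For mKO2low against mKO2high, 10 of the 11 were higher (median log2 ratio 0.24), where 5690 of all 10901 genes were. Ifnar2 and Stat2 were at least 2-fold higher, a share near the 19.6% of all genes. Ifnar2, a chain of the type I receptor, had a ratio of 1.39 (0.76 to 2.13) and Stat2 of 2.23 (1.14 to 3.86). Both were also past 2-fold without the single cell, at 1.43 and 1.92. For mAG+ against mKO2neg, 4 were higher and 7 lower (median -0.13), with Ifngr2 (1.04, 0.44 to 1.74) and Jak2 (1.23, 0.55 to 2.02) at least 2-fold higher, where 21.2% of all genes were. Stat3 was lower there, at -0.76 (-1.06 to -0.47).

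The antiviral effectors were more often higher than lower in mKO2low beside mKO2high, and part of this rested on the single cell. For mKO2low against mKO2high 28 of the 39 measured were higher, 13 of them at least 2-fold, and 3 were at least 2-fold lower (median 0.41). Of all 10901 genes 5690 were higher, with 19.6% at least 2-fold higher and 15.0% at least 2-fold lower (median 0.05). Without the cell 23 were higher, 10 at least 2-fold, and 4 were at least 2-fold lower, with a median of 0.14. Isg20, an exonuclease gene, had 313 counts in 23 mKO2low cells against 59 in 9 mKO2high cells, a ratio of 1.53 (1.14 to 1.97), and of 1.27 without the cell. Parp14 had 1.94 (1.21 to 2.88) and 1.71 without it, while Usp18 went from 1.78 (1.11 to 2.60) to -0.16. For mAG+ against mKO2neg 14 of 35 effectors were higher, 3 of them at least 2-fold, and 21 lower, 5 at least 2-fold (median -0.12), where 21.2% and 14.6% of all genes were past 2-fold. Ifi44 had 52 counts in mKO2neg and 33 in mAG+, a ratio of -1.42 (-2.13 to -0.79), and Sp100, a nuclear body protein gene, had 68 and 281, a ratio of 1.24 (0.86 to 1.66). Lgals3bp was lower in mAG+, at -1.19 (-1.42 to -0.96).

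Genes of the interferon gamma program, which include guanylate-binding proteins, immunity-related GTPases and parts of the antigen-processing machinery, were lower in 14 of 22 cases in each comparison within a library, with shares past 2-fold near those of all genes. For mKO2low against mKO2high 8 of 22 were higher and 14 lower (median -0.29), with 2 at least 2-fold higher and 4 at least 2-fold lower, where 19.6% and 15.0% of all genes were. For mAG+ against mKO2neg the counts were also 8 and 14 (median -0.18), with 3 and 4 past 2-fold, where 21.2% and 14.6% of all genes were. The immunoproteasome subunit Psmb8 was level at 627, 562.5, 619 and 592.5 CPM in mKO2high, mKO2low, mKO2neg and mAG+. Gbp4 was higher in mKO2high, with 104 counts in 7 cells there and 22 in 7 cells of mKO2low, a ratio of -3.04 (-3.84 to -2.43), but 1 cell held 60 of the 104. The single effector-rich cell held 10 of the 22, and without it the ratio was -3.81. Outside that program, Socs3, a brake on cytokine signalling, had a ratio of mAG+ to mKO2neg of -2.53 (-3.60 to -1.75) on 14 and 50 counts. Socs1, a related brake that is in the program, went the other way and was at least 2-fold higher in mAG+. Of the 10 negative regulators measured 4 were higher and 6 lower there (median -0.10), with 1 past 2-fold in each direction, where 21.2% and 14.6% of all genes were. Among the 14 nucleic acid sensors and adaptors, 7 of 10 measured were higher in mKO2low than in mKO2high, with Ddx58, Dhx58, Mavs and Tbk1 at least 2-fold (19.6% of all genes were). Without the single cell 6 were higher, 3 of them at least 2-fold. Ddx58, which encodes the RNA sensor RIG-I, had a ratio of 1.21 (0.57 to 1.96), and 0.96 without the single cell.

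Across the 180 cells with at least 1000 counts, the members moved together only weakly. Correlations use log2 of counts per 10000 plus 1, centred within each gate, and the cells of a gate share their library. Over the 36 pairs of members the median Pearson r was 0.10, and 6 pairs were over 0.2. The highest was Isg15 with Irf7 at 0.35, or 0.24 without the single cell, then Ifitm3 with Irf7 at 0.33 and Ifitm3 with Ly6e at 0.32. Irf7 and Ly6e had 0.31, Bst2 and Irf7 0.30, and Ifitm1 and Ifitm3 0.26. Only 9 cells had a count for both Isg15 and Irf7, against 62 for Ifitm3 and Irf7 and 171 for Ifitm3 and Ly6e. How far sparse counts lowered these correlations was not tested. No pair with Irf1, Ifi27 or Ifitm2 was over 0.2, and the lowest r was that of Bst2 and Irf1, at -0.12. The genes most like the summed members among 5559 genes with a count in at least 25% of the cells were H2-D1 (r 0.44) and H2-K1 (0.39), which encode class I antigen-presenting heavy chains, and B2m (0.35), their light chain. Selenow (0.32) and the effector Rtp4 (0.31, or 0.28 without the single cell) followed. The median over these genes was 0.01, the 5th and 95th percentiles -0.13 and 0.15, and the r of the summed members with log depth 0.00. H2-D1 also had an order of gates like that of Ifitm1, from 3113 CPM in mKO2high through 2101 in mKO2low and 2036 in mKO2neg down to 1630 in mAG+.

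Some markers of other cell types differed between gates, in several cases mainly through 1 cell. All 6 B lineage markers measured were higher in mAG+ than in mKO2neg, 4 of them at least 2-fold (6397 of all 12115 genes were higher and 21.2% at least 2-fold). Cd79a had 67 counts in 3 mAG+ cells, 65 of them in 1 cell, and none in the other gates. Of the 7 neutrophil markers measured, 3 were higher and 4 lower in mAG+ than in mKO2neg, with 1 at least 2-fold higher and 2 at least 2-fold lower. Camp, a neutrophil granule gene, had 605 counts in mKO2neg and 178 in mAG+, with a ratio of mAG+ to mKO2neg of -2.55 (-2.81 to -2.32), but 1 cell held 577 of the 605 and another 129 of the 178. Of the 5 megakaryocyte markers measured, 3 were higher in mAG+ than in mKO2neg (median 0.60), and Vwf was at least 2-fold higher while Pf4 and Gp9 were at least 2-fold lower. Pf4 alone of these stood in the order of Ifitm1, at 187, 52.8, 42.9 and 16.5 CPM in mKO2high, mKO2low, mKO2neg and mAG+, with 107 of the 175 mKO2high counts in 1 cell. Of the 13 stem and progenitor markers 7 were higher and 6 lower in mAG+ than in mKO2neg (median 0.03). Between mKO2low and mKO2high 6 were higher and 6 lower. Procr, a stem cell surface receptor, stood at 315, 170, 150 and 56.6 CPM, again in the order of Ifitm1. The part of these cells in the levels above was not tested.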

How the data were processed

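The deposited tables give raw counts made by the authors for each gene in each of 192 cells, with no normalization. HISAT2, HTSeq 0.11.3, Seurat and build mm10 are named, with no role given, per the submitters' processing notes. Whether molecular identifiers were used is not given in the sources used here. The deposited cell table gave each cell's gate, and its column of mKO2hi cells was read as mKO2high. Cells carry a number within their library and no barcode, so shared barcodes could not be counted.

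Of 53378 rows, 53273 matched GENCODE vM21 by gene ID and 105, with 0.222% of counts, did not. Each gene was read from the row of the gene before it, in GENCODE order over the IDs in the tables. This displacement was inferred from the counts and is not stated by the labels.

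Counts were summed per gate and scaled to CPM. Log2 ratios used a prior count of 1, and genes with at least 10 counts over both gates were compared. Intervals were exact Poisson (CPM), Clopper-Pearson (shares) and conditional binomial (ratios), at 95%. Only the ratio intervals were tested, on simulated Poisson counts of genes with many counts, and low counts were not tried. All 3 kinds cover counting error alone. A gene without counts was set to a floor of 3 counts in its gate (3.21, 1.76, 1.86 and 1.07 CPM in mKO2high, mKO2low, mKO2neg and mAG+), and 0 of 48 cells allows a share of cells with a count of up to 6.25%, which is no limit on cells that express a gene, since some cells are shallow. A gene was called when past 2-fold, without a test. Thinning to 5000 counts left 39, 48, 43 and 45 cells in those gates.

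The members and lists were chosen with earlier results of these data known. Named were all 9 members, at most 4 genes of each list by total counts, listed genes past 2-fold on at least 20 counts over the gates of a library, found in 6 or more cells of the higher gate, and the 5 genes most like the members. Cxcl10, Ifit3b, Cd48, Ifng, Ifitm10, the motif searches and the genes given for the single mKO2low cell were chosen after values were seen. Alternatives were edgeR (4.0.16) TMM factors, DESeq2 (1.42.0) size factors, equal weight for each cell, thinning, a cell quality filter (at least 1000 genes, under 20% mitochondrial counts), no filter on low counts, leaving out the largest or deepest cell, a prior count of 5, the labels as deposited and, added after seeing the data, leaving out the single mKO2low cell. Python 3.11.15, scipy 1.17.1 and R 4.3.3 were used.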

Additional observations from a re-analysis of the deposited data

How the results depend on the processing

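No paired analysis was possible because each gate is 1 sample. Over 11 alternatives, 35 of 44 medians and 30 of 44 counts past 2-fold stayed within counting error or within 1.5 times. No median or count moved beyond that with TMM factors, DESeq2 size factors or the quality filter. The same held for a prior count of 5 and for no filter on low counts. For a median, the counting error was the interval of the single member at the median, so these limits can be wide. For mAG+ against mKO2neg that member was Irf7 (-0.34 to 0.50). The median there counted as unmoved although its sign turned, from 0.07 to -0.14 with equal weight for each cell. It was -0.07 in thinned cells and -0.27 once the deepest cells were dropped. Under the other alternatives, the labels as deposited aside, it stayed positive. Of the ratios of single members, 304 stayed, 59 moved and 8 reversed. The cause was not tested unless the alternative itself shows it (fewer cells, fewer counts).

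With equal weight for each cell, 2 members each were past 2-fold in the comparisons of mKO2low with mKO2high, of mAG+ with mKO2neg and of mAG+ with mKO2high, and the median for mKO2neg against mKO2low was -0.39. With cells thinned to 5000 counts, where Isg15 had under 10 counts and no ratio, the members past 2-fold numbered 0 between mKO2low and mKO2high, 3 between mAG+ and mKO2neg, and 1 between mKO2neg and mKO2low. The medians were -0.32 for mKO2neg against mKO2low and -0.63 for mAG+ against mKO2high. Ifi27 reversed to -0.14 for mKO2low against mKO2high and Bst2 to -0.021 for mAG+ against mKO2neg. Without the largest cell of each gene, 2 members were past 2-fold when mAG+ was set against mKO2neg, 2 when it was set against mKO2high, and the median for mKO2neg against mKO2low was -0.39. Without the deepest cell of each gate, 1 member was past 2-fold for mKO2neg against mKO2low and 2 for mAG+ against mKO2high, whose median was -0.63. Without the single mKO2low cell the median for mKO2neg against mKO2low was -0.32 with 0 members past 2-fold, and Irf7 reversed to -0.20 for mKO2low against mKO2high.

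Under the labels as deposited only 3 to 5 members had enough counts. The median was -0.41 between mKO2low and mKO2high, -0.87 between mAG+ and mKO2neg, and -0.18 between mKO2neg and mKO2low. Members past 2-fold numbered 3 between mAG+ and mKO2neg, 1 between mKO2neg and mKO2low, and 3 between mAG+ and mKO2high. Ifi27 reversed to -3.22 for mKO2low against mKO2high and -0.43 for mAG+ against mKO2high, Ifitm3 to 1.44 and 3.91 for mAG+ against mKO2neg and against mKO2high, and Bst2 to -0.87 for mAG+ against mKO2neg. Depth is least for Isg15, with 9 to 58 counts per gate, and in the comparisons that hold mKO2high, the shallowest gate.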

Other observations

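Several other immune genes outside the 9 had their lowest level in mAG+. Tgtp1, an interferon-inducible GTPase, stood at 58.9 CPM in mKO2high and 45.2 CPM in mKO2low, against 18.0 CPM in mKO2neg and 6.81 CPM in mAG+, with a log2 ratio of mAG+ to mKO2neg of -1.35 (-2.32 to -0.52). Tor3a stood at 31.1, 23.5, 39.8 and 12.5 CPM in mKO2high, mKO2low, mKO2neg and mAG+, with a ratio of -1.63 (-2.30 to -1.05). Without the single effector-rich cell the mKO2low levels were 31.9 CPM for Tgtp1 and 15.7 CPM for Tor3a. The transcription factor gene Irf5 had 37, 25, 27 and 2 counts, with a ratio of -3.88 (-7.67 to -2.56). Not all of the immune genes were lowest there. Irf8 had 3, 8, 51 and 23 counts and its highest level in mKO2neg, with a ratio of mAG+ to mKO2neg of -1.89 (-2.72 to -1.21), and 7 of the 8 mKO2low counts were in the single effector-rich cell. Psmb9, an immunoproteasome subunit gene, stood at 213, 212, 218 and 334 CPM, with a ratio of 0.61 (0.43 to 0.79). Mndal, a nuclear sensor family gene, stood at 172, 251, 139 and 246 CPM, with a ratio of 0.82 (0.60 to 1.05). Without the single effector-rich cell the mKO2low level of Mndal was 211 CPM, below that of mAG+.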
